A study of Homo sapiens with 8 samples.

Results

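The γH2AX regions described here lie at the ends of the long arms of chromosomes 4 and 10. γH2AX is the phosphorylated form of the histone variant H2AX that accumulates in chromatin around DNA breaks. Every region with its midpoint at or beyond 190 Mb on chromosome 4 (the 4q end) or position 134500000 on chromosome 10 (the 10q end) of human build hg19 was taken. The limits were chosen by the region counts of these lists, so the counts describe the ends and test nothing. The ends held 1464 of the 54434 regions in the 3 deposited lists. These were 329 of 10090 regions in untreated cells, 583 of 26121 with cisplatin and 552 of 18223 with Pt-ttpy. The region nearest to the 4q limit began at 190155072 in the untreated list with a fold enrichment of 8.72, at 190155063 after cisplatin with 6.06, and at 190155073 after Pt-ttpy with 4.81. The nearest region outside it ended 573, 572 and 570 kb before the limit, with folds of 5.11, 3.64 and 4.81. On chromosome 10 the first regions inside began at 134709543, 134507710 and 134709527, with folds of 5.41, 3.29 and 5.85. The last ones outside ended 2368, 2368 and 322 kb before that limit, with folds of 9.02, 5.19 and 4.69.

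The cells were A2780, 1 human ovarian carcinoma line, and all results hold for that line. Chromatin was immunoprecipitated with an anti-γH2AX antibody from untreated cells and from cells kept for 96 hours with cisplatin or with Pt-ttpy, each at its IC80. Cisplatin crosslinks DNA, and Pt-ttpy is a platinum complex that binds G-quadruplexes, folded structures of guanine-rich DNA. The labels give 2 samples for each of these conditions and 2 input samples, but 1 peak list for each condition. No value below therefore has a replicate, no p-value was computed, and the input was not analysed here. The fold enrichment and the -log10 q of a region are the authors' values over a background level that differs between lists, so they rank regions within a list only. From their names, the treated lists may have been called against the untreated samples, which the sources used here do not settle. The depth of the libraries is unknown, and the 95% intervals given cover counting error only.

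D4Z4 is a macrosatellite, a tandem array of a repeat unit of about 3.3 kb that lies near the end of 4q, and a highly similar array lies near the end of 10q. Each unit carries a reading frame of DUX4, which encodes a transcription factor of early embryonic cells. A short, unsilenced array on 4q that lets DUX4 be expressed in muscle is associated with facioscapulohumeral muscular dystrophy. The FRG2 genes lie next to the arrays and belong to a family with near-identical copies on several chromosomes.

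Promoters of the genes next to the arrays, FRG2 on 4q and FRG2B on 10q, and of DUX4 on 4q are shown. No array unit of 10q was compared. The promoters were read from RefSeq on GRCh38.p14, as 300 bases from 250 before the annotated start, 5′ to 3′ on the gene's strand. Capitals mark runs of 3 or more G or of 3 or more C. FRG2 is on the minus strand of chromosome 4, FRG2B on the minus strand of chromosome 10 and DUX4 on the plus strand of chromosome 4.
FRG2: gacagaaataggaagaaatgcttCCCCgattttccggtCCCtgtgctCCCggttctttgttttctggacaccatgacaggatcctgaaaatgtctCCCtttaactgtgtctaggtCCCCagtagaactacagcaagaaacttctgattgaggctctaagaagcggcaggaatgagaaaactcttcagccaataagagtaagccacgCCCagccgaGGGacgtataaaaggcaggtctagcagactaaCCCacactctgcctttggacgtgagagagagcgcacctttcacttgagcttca
FRG2B: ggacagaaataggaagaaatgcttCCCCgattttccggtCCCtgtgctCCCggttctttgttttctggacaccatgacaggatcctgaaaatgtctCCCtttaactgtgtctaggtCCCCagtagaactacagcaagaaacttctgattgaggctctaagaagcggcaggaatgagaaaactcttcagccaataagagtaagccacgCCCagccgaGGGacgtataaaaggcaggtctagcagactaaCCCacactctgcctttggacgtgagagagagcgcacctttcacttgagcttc
DUX4: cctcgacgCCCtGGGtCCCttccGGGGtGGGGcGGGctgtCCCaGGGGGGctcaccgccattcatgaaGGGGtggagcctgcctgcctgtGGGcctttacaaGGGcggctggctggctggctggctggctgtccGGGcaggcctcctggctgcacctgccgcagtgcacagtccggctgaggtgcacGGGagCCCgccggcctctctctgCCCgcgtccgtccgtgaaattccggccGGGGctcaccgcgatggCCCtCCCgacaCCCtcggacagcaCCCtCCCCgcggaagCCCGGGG
The FRG2 and FRG2B windows were offset by 1 base and were then identical at 299 of 299 bases. Of the 251 stretches of 50 bases in the FRG2 window, 250 occurred unchanged in FRG2B and 119 in FRG2C, a copy on chromosome 3. The reads of these libraries were 50 bases long, so a read that lies within a shared stretch cannot be given to 1 of the ends by its sequence. The sources used here do not say how such reads were placed. The DUX4 window had a GC content of 73.3% and 23 runs, and the FRG2 window 49.0% and 8 runs. Over all 35116 promoters of the table the medians were 58.7% and 13 runs, 13.0% had a GC content at or above that of DUX4, and 9.98% had as many runs or more. A motif of 4 runs of 3 or more G, or of 3 or more C, with 1 to 7 bases between runs, was found in neither strand of the FRG2, FRG2B or DUX4 window, and in 8778 of the 35116 promoters. No gene annotation of hg19 was used, so no region below is tied to a gene. In gene order on GRCh38.p14, 8 DUX4L pseudogenes follow FRG2 on chromosome 4 before DUX4, and 14 follow FRG2B on chromosome 10.

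The 4q end held more regions than the 10q end in each list. The 4q end held 268 untreated regions (95% Poisson interval 237 to 302), 491 after cisplatin (449 to 536) and 475 after Pt-ttpy (433 to 520). The 10q end held 61 (46.7 to 78.4), 92 (74.2 to 113) and 77 (60.8 to 96.2). Per 10 kb this was 2.32, 4.25 and 4.12 regions on 4q and 0.590, 0.889 and 0.744 on 10q, so that 4q was 3.94, 4.78 and 5.53 times as dense. Unsequenced bases of hg19 were not taken out of these lengths. As a share of its list, the 4q end held 2.66% of untreated, 1.88% of cisplatin and 2.61% of Pt-ttpy regions, and the 10q end 0.605%, 0.352% and 0.423%. The counts at both ends were thus higher in the treated lists while the shares were lower or, for Pt-ttpy on 4q, close to the untreated share.

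The treated lists held 1.83 (cisplatin) and 1.77 (Pt-ttpy) times as many regions as the untreated list on 4q, and 1.51 and 1.26 times as many on 10q. The untreated list lacks 8848 of the peak numbers up to its highest, 18049, whereas no number is missing from the treated lists. With the missing numbers placed between their retained neighbours, the 4q end had 388 untreated numbers in place of 254 and the 10q end 69 in place of 59. Counted with them, the ratios were 1.27 and 1.22 on 4q and 1.33 and 1.12 on 10q. The sources used here give no reason for the gaps, and their part in the difference was not tested. The order of the lists also rested on how regions were counted. With regions within 1 kb merged, 4q held 100 untreated, 81 cisplatin and 94 Pt-ttpy regions, which turned the order, and 10q held 19, 20 and 21. With the 10090 strongest regions of each list, 4q held 268, 290 and 288.

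**Figure D1:**
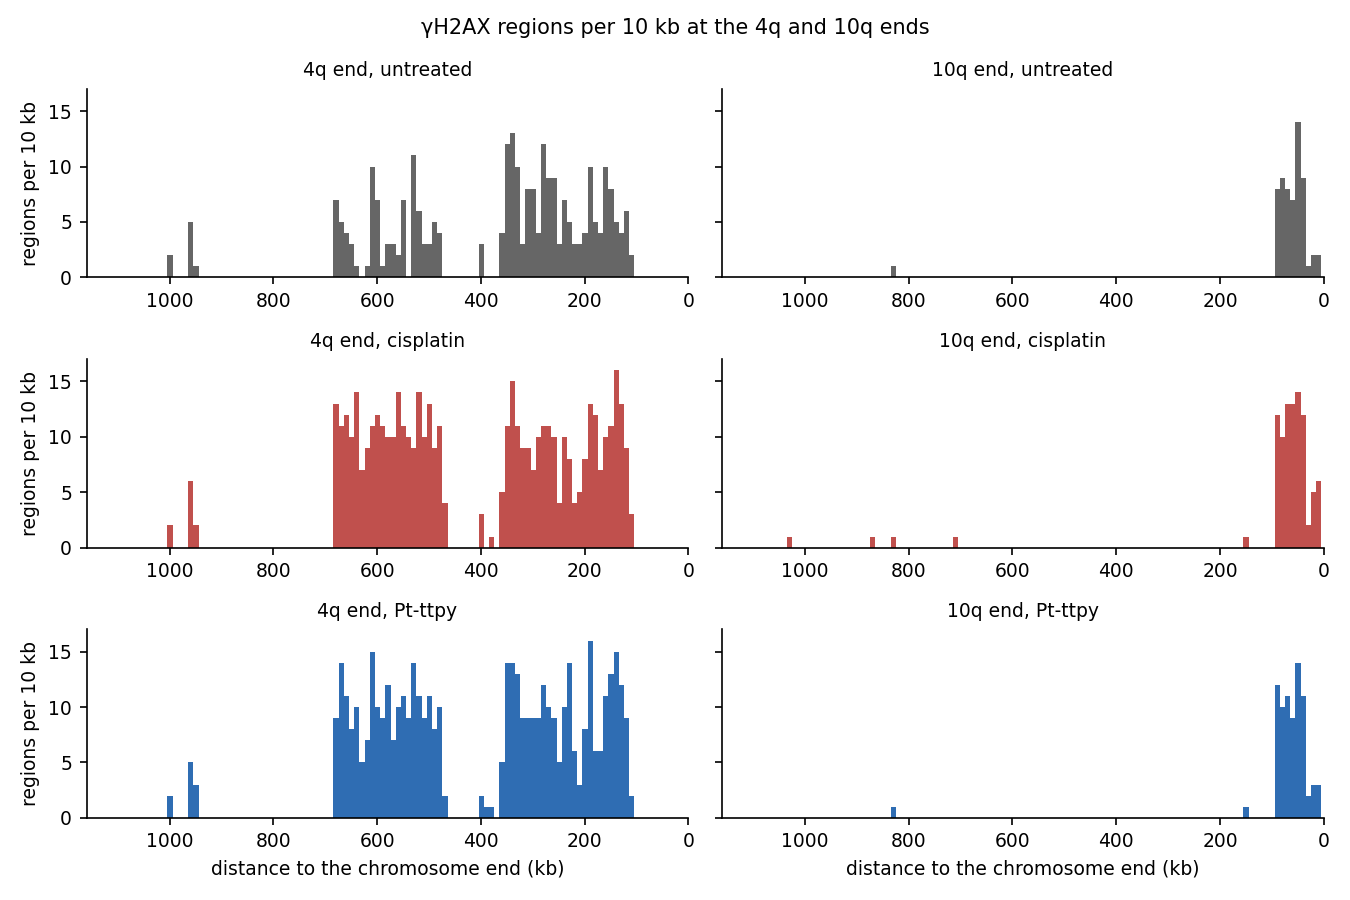
Regions per 10 kb window (vertical axis) against the distance of the window from the chromosome end in kb (horizontal axis), for the untreated, cisplatin and Pt-ttpy lists at the 4q and 10q ends. The regions fall into a few blocks at both ends: 4q has 2 long dense blocks and 10q has 1. The region nearest the chromosome end lies 110042 to 110068 bp from it on 4q and 11759 to 13202 bp on 10q. These distances include any unsequenced bases of hg19, which were not looked at.

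Regions fell into a few blocks with empty sequence between them, as the plot of regions per 10 kb shows. When regions of all lists within 25 kb of each other were joined, 2 blocks held most of the 4q end. The proximal one spanned 190470286 to 190684401 (214 kb) and held 86 untreated, 235 cisplatin and 212 Pt-ttpy regions. The distal one spanned 190796210 to 191044234 (248 kb) and held 171, 242 and 249. On 10q, a single block from 135440651 to 135522988 (82.3 kb) held 60, 87 and 75 regions, or 98.4%, 94.6% and 97.4% of that end. The distal 4q block and the 10q block had similar densities in each list, at 6.89 and 7.29 regions per 10 kb in untreated cells, 9.76 and 10.6 after cisplatin, and 10.0 and 9.11 after Pt-ttpy. The lower density of the whole 10q end thus came with a shorter block. The densest 10 kb window held 13, 16 and 16 regions on 4q, and 14 in each list on 10q. On 10q that window was the same in all lists, 135480001 to 135490000. On 4q it began at 190810001 in the untreated list, 191010001 after cisplatin and 190960001 after Pt-ttpy.

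The proximal 4q block differed from the distal one in how much of it the untreated list held. It had 2.73 times as many regions after cisplatin and 2.47 times as many after Pt-ttpy as in untreated cells, against 1.42 and 1.46 in the distal block and 1.45 and 1.25 in the 10q block. With missing untreated numbers counted, the proximal ratios were 1.34 and 1.20, the distal ones 1.24 and 1.28, and the 10q ones 1.28 and 1.10. Of the missing numbers of the 4q end, 96 fell in the proximal and 32 in the distal block. With these numbers counted, the blocks thus lay closer to each other. Regions covered 4.95% of the proximal block in untreated cells, 42.6% after cisplatin and 34.3% after Pt-ttpy. They covered 16.6%, 30.9% and 30.4% of the distal block and 14.6%, 33.7% and 29.2% of the 10q block.

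Regions of the proximal block were also weaker. Their median fold was 4.21, 3.64 and 3.52 in the untreated, cisplatin and Pt-ttpy lists, against 6.31, 5.54 and 5.07 in the distal block. A -log10 q of at least 5 was reached by 16.3%, 46.4% and 36.3% of proximal and by 88.3%, 86.8% and 85.5% of distal regions. Over the whole 4q end the shares were 64.9%, 67.6% and 63.8%, and over the 10q end 72.1%, 82.6% and 84.4%. All regions of the lists gave 74.6%, 47.6% and 58.5%. The shares of the treated lists were thus higher at both ends than over their whole lists. The untreated share was lower on 4q, and on 10q it was close to that of the whole list (95% Wilson interval 59.8 to 81.8).

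Regions were wider than usual for their list in treated cells. The median width on 4q was 144.5 bp in untreated cells (quartiles 106 and 239), 237 bp after cisplatin (151 and 417.5) and 234 bp after Pt-ttpy (150 and 394.5). On 10q it was 156 bp (111 and 213), 243.5 bp (140 and 346) and 256 bp (145 and 330). The medians of the whole lists were 165, 169 and 186 bp. Regions of 500 bp or wider on 4q numbered 16 without drug, 98 with cisplatin and 83 with Pt-ttpy, and on 10q 1, 11 and 11. The untreated list alone held regions narrower than the narrowest treated one, 61 on 4q and 11 on 10q. Of its regions, 60 on 4q and 11 on 10q had their summit outside their own bounds, so the untreated widths are in part those of pieces.

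Each end had a strongest place, and it was the same in all lists. On 4q the top region by q was 190943543 to 190943928 without drug, where the fold was 34.0 and the -log10 q 139. Cisplatin gave 190942807 to 190943926, with 28.7 and 183, and Pt-ttpy 190942809 to 190943921, with 23.3 and 143. The untreated list split this place and gave its other piece, 190942813 to 190943438, a fold of 16.2. On 10q the top region was 135499398 to 135501673 without drug, where the fold was 53.8 and the -log10 q 257. It was 135499392 to 135501860 after cisplatin (34.1 and 231) and 135499386 to 135501886 after Pt-ttpy (25.6 and 165). It was also the widest region of the 10q end in each list, at 2276, 2469 and 2501 bp. Of each whole list, 99.2%, 99.8% and 99.7% of regions had a lower q than the 10q top region, and 97.2%, 99.4% and 99.2% a lower q than the 4q one.

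Several of the next regions by q also recurred across lists, not always at the same rank. On 10q, 135490972 to 135491185 had a fold of 31.6 in untreated cells. The matching regions were 135490971 to 135491882 after cisplatin, with 23.4, and 135490969 to 135491639 after Pt-ttpy, with 19.5. The third on 10q had a much lower fold, 10.7 at 135463171 to 135463463 after cisplatin and 10.4 at 135463166 to 135463734 after Pt-ttpy. The third in untreated cells was another region, 135461142 to 135461371, with 8.42. On 4q, 190197956 to 190198383 had a fold of 16.5 in untreated cells, 190197917 to 190198433 had 15.4 after cisplatin, and 190197923 to 190198455 had 13.9 after Pt-ttpy. This place lies in a small block, 190191436 to 190202843, that held 6, 8 and 8 regions. A further place in the distal block, 190842265 to 190843267 in untreated cells, had folds of 14.4, 15.1 and 13.9.

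The last regions of 4q were at nearly the same position in each list. Whether hg19 holds sequence beyond that position was not checked. The region nearest the chromosome end was 191044051 to 191044208 in untreated cells (fold 6.62), 191044033 to 191044225 after cisplatin (3.46) and 191044016 to 191044234 after Pt-ttpy (4.69). The widest region after cisplatin was 191027744 to 191034155 (6412 bp, fold 6.75), and that after Pt-ttpy, 191029937 to 191033197 (3261 bp, fold 6.75), lay inside it. In untreated cells the widest was 191028163 to 191029606 (1444 bp), also inside the cisplatin region. Of their lists, 88.2% (cisplatin), 85.0% (Pt-ttpy) and 60.0% (untreated) had a lower q than these widest regions.

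The lists shared most of their places. Of the untreated regions, 257 of 268 on 4q (95.9%, 95% Wilson interval 92.8 to 97.7) and 60 of 61 on 10q (98.4%) shared at least 1 bp with a cisplatin region, against 96.2% of the whole untreated list. For Pt-ttpy the shares were 94.0% and 96.7%, against 95.2%. Untreated regions at the ends were therefore found after either drug about as often as elsewhere. In the other direction, 212 of 491 cisplatin regions on 4q (43.2%, 38.9 to 47.6) and 53 of 92 on 10q (57.6%, 47.4 to 67.2) lay on an untreated region, against 28.1% of the whole list. For Pt-ttpy these were 219 of 475 (46.1%, 41.7 to 50.6) and 55 of 77 (71.4%, 60.5 to 80.3), against 40.2%. In both treated lists the share was higher on 10q than on 4q, and the intervals of the ends did not overlap for Pt-ttpy but did for cisplatin. The size of these shares rested on the overlap rule. When at least 50% of a region had to be covered, they were 27.1% and 31.2% on 4q (cisplatin, Pt-ttpy) and 32.6% and 45.5% on 10q. Within 1 kb they were 69.0% and 74.7% on 4q and 85.9% and 94.8% on 10q.

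The lower share on 4q was that of the proximal block. There 56 cisplatin regions (23.8%, 18.8 to 29.7) and 58 Pt-ttpy regions (27.4%, 21.8 to 33.7) lay on an untreated region. In the distal block the shares were 59.9% (53.6 to 65.9) and 60.6% (54.5 to 66.5), and in the 10q block 59.8% (49.3 to 69.4) and 72.0% (61.0 to 80.9). The distal 4q block was thus close to the 10q block for cisplatin, and for Pt-ttpy the intervals overlapped. The 96 untreated numbers missing from the proximal block bear on its share, and their part in it was not tested. Treated regions that lay on an untreated one were stronger than the rest, with median folds of 6.06 against 3.64 (4q) and 5.19 against 3.98 (10q) after cisplatin. After Pt-ttpy they were 5.46 against 3.65 and 5.07 against 4.04.

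The drugs shared more places with each other than with untreated cells. Of the cisplatin regions, 403 on 4q (82.1%, 78.4 to 85.2) and 72 on 10q (78.3%, 68.8 to 85.5) lay on a Pt-ttpy region, against 48.4% of the whole cisplatin list. Of the Pt-ttpy regions, 409 (86.1%, 82.7 to 88.9) and 73 (94.8%, 87.4 to 98.0) lay on a cisplatin region, against 70.4%. When overlapping regions of all lists were joined into places, 4q had 508 and 10q 91. All lists held 194 places on 4q (38.2%) and 50 on 10q (54.9%). Both drugs but not untreated cells held 159 on 4q (31.3%) and 17 on 10q. Cisplatin alone held 81 and 19, Pt-ttpy alone 59 and 3, and untreated cells alone 4 and 0. Untreated cells and cisplatin held 5 and 1, and untreated cells and Pt-ttpy 6 and 1. Over the whole genome, 21.5% of the 30463 places were held by all lists, 16.1% by both drugs only, 43.5% by cisplatin alone, 17.2% by Pt-ttpy alone and 0.574% by untreated cells alone. The untreated list shared 0.676% with cisplatin only and 0.41% with Pt-ttpy only. Cisplatin-only places thus made up 15.9% of 4q and 20.9% of 10q, less than over the genome, and places of all lists made up more.

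Regions of a single list were a smaller share of these ends than of the whole lists for both drugs. Cisplatin regions that lay on neither other list were 81 of 491 on 4q (16.5%) and 19 of 92 on 10q (20.7%), against 50.8% of the whole cisplatin list. For Pt-ttpy they were 59 of 475 (12.4%) and 3 of 77 (3.90%), against 28.8%, and for untreated cells 4 of 268 and 0 of 61, against 1.73%. Their median fold on 4q was 3.46 after cisplatin and 3.52 after Pt-ttpy, below the list medians of 3.64 and 4.04, and on 10q 3.64 and 3.52. A -log10 q of at least 5 was reached by 28 of the 81 and 9 of the 19 cisplatin regions, against 17.2% of all regions of cisplatin alone. For Pt-ttpy it was reached by 23 of the 59 and 1 of the 3, against 18.1%, and for untreated cells by 0 of the 4, against 34.3%. The strongest on 4q were 190942364 to 190942666 after cisplatin, with a fold of 5.37 and a -log10 q of 11.5, and 190906695 to 190906819 after Pt-ttpy, with 5.72 and 13.7. On 10q they were 135498613 to 135498724 after cisplatin (5.19 and 10.7) and 135492003 to 135492108 after Pt-ttpy (4.56 and 8.36). The cisplatin regions at 190942364 and 135498613 began within 1 kb of the strongest 4q and 10q regions described above.

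A spacing of 3.3 kb was seen in a stretch of each end. The stretch was defined as the longest run of windows of 1 unit length (3300 bp) whose covered bases matched those of the next unit in the cisplatin list. It was chosen after the data were seen. On 4q it spanned 190988350 to 191014749 (26.4 kb, 8 units) and on 10q 135476800 to 135501549 (24.75 kb, 7.5 units). Found in the Pt-ttpy list instead, it spanned 190986700 to 191014749 and 135478450 to 135503199, which moves the bounds by 0 or 1650 bp. The 4q stretch ends 139527 bp and the 10q stretch 33198 bp from the end of the chromosome, with any unsequenced bases of hg19 counted. It held 23 untreated, 29 cisplatin and 29 Pt-ttpy regions on 4q, which is 8.58%, 5.91% and 6.11% of that end. On 10q it held 25, 31 and 29, or 41.0%, 33.7% and 37.7%. Further runs of matching windows were found on 4q, from 191018050 to 191041149 (23.1 kb, 7 units) and from 190622050 to 190636899 (14.85 kb, 4.5 units). In the first of these a shift of 1 unit gave 33.8%, 73.0% and 62.3% of covered bases covered again, against medians over all shifts of 25.2%, 64.2% and 60.5%. In the other it gave 4.44%, 67.0% and 50.1% against 8.82%, 68.1% and 53.0%. Neither run thus stood out against other shifts by much, and they were not used further. With all 3 runs counted, 18.7% of untreated, 14.7% of cisplatin and 16.2% of Pt-ttpy regions of the 4q end lay in a run, a minority as on 10q. No sequence or annotation of hg19 was used, so the extent of D4Z4 was not measured, and the longest run of each end is called its repeating stretch here.

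**Figure D2:**
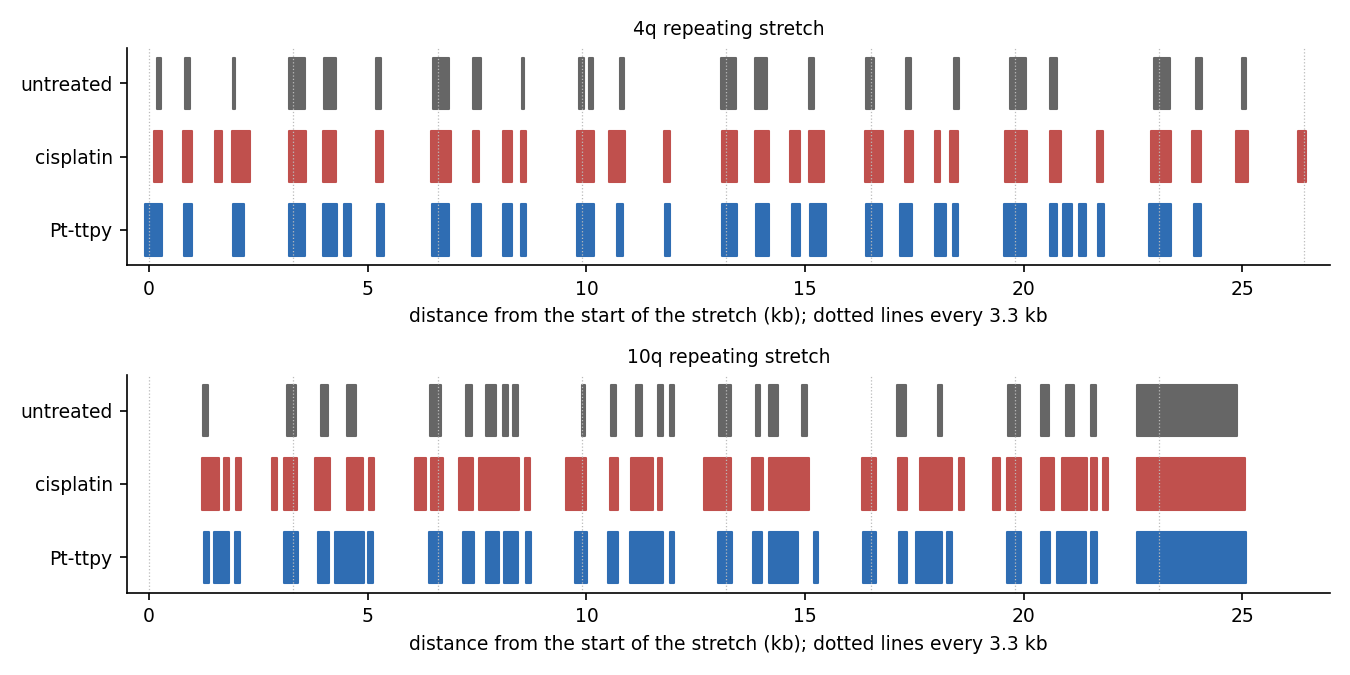
Regions of the untreated, cisplatin and Pt-ttpy lists in the repeating stretches of the 4q and 10q ends, drawn to scale as bars against position in kb from the start of the stretch, with lines at each 3.3 kb unit. The bars return at similar places in successive units in all lists, with 2 to 6 regions a unit.

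The covered bases were then shifted along the chromosome, and the share that fell on covered bases again was counted. The value at a number of units is the highest within 50 bp of it. Windows had been matched only at shifts close to 1 unit. High shares and a best shift near 1 unit in the cisplatin list were thus fixed by how the stretch was chosen. The other lists share most of the cisplatin places, so the shares and best shifts are a description. In the 4q stretch a shift of 1 unit gave 69.2% in untreated cells, 72.2% after cisplatin and 71.8% after Pt-ttpy. The medians over all shifts of 1 to 12 kb were 11.0%, 27.4% and 25.9%. Among shifts of 2.5 to 4.5 kb, the highest share was at 3300, 3295 and 3300 bp. Shifts of 2 units gave 65.0%, 74.7% and 70.7% and shifts of 3 units 73.7%, 72.5% and 74.7%. In the 10q stretch a shift of 1 unit gave 58.3%, 83.3% and 86.1% against medians of 28.5%, 50.3% and 42.7%. The best shifts from 2.5 to 4.5 kb were 3305, 3310 and 3305 bp. The widest 10q region, which is also its strongest, lies at the end of this stretch. Without it the 10q shares were 40.5%, 69.3% and 71.6%, and the medians 14.7%, 36.8% and 31.2%. Without the widest region of the 4q stretch the shares were 60.4%, 64.5% and 64.0%.

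**Figure D3:**
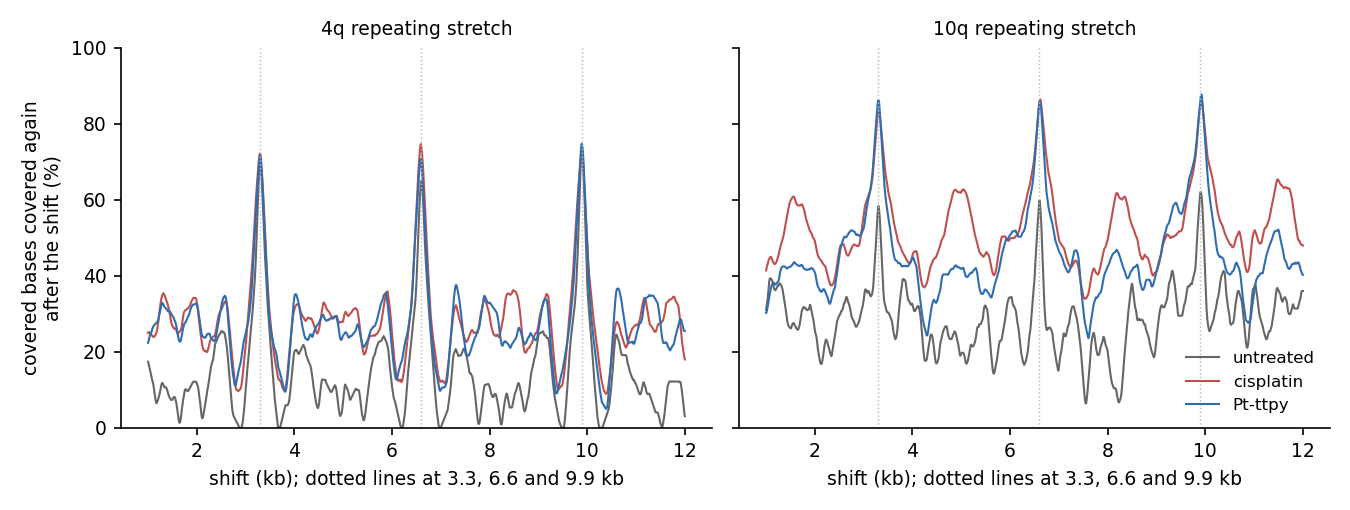
Share of covered bases that are covered again after a shift (vertical axis, percent) against the shift in kb (horizontal axis), for the repeating stretches of 4q and 10q and the 3 lists. Peaks stand at multiples of 3.3 kb in each list, highest in the 4q stretch relative to the other shifts.

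Over longer sequence the 3.3 kb spacing was weaker. Over the whole 4q end a shift of 1 unit gave 20.1%, 40.7% and 35.2%, against medians of 12.5%, 36.3% and 31.5%, and over the whole 10q end 22.4%, 47.5% and 44.8%, against 13.9%, 30.8% and 27.4%. A shift of 1650 bp gave as much on the 4q end, 20.3%, 41.2% and 35.7%, and less on the 10q end, 14.6%, 37.3% and 31.1%. In the proximal 4q block a shift of 1 unit gave 4.60%, 42.1% and 31.3% against 5.20%, 42.7% and 34.4%, and thus no more than other shifts. In the distal block before the stretch it gave 16.9%, 31.1% and 32.7% against 14.8%, 27.1% and 27.6%, and a shift of 1650 bp gave more, 21.4%, 33.4% and 33.1%. The 4q values before the stretch thus do not single out 3.3 kb.

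Other pieces of the blocks were mixed. Between the 4q stretch and the last region, 14 untreated, 36 cisplatin and 35 Pt-ttpy regions gave 32.5%, 63.4% and 55.1% against 20.3%, 55.1% and 51.5%, with 50.4% at a shift of 1650 bp in untreated cells. The best shifts there from 2.5 to 4.5 kb were 2855, 3300 and 3970 bp. On 10q, the block before the stretch gave 12.1%, 38.6% and 29.7% against 13.8%, 35.4% and 29.7%. The few regions after the 10q stretch, 4, 12 and 7, were an exception. They gave 25.6% against 0% in untreated cells, 42.2% against 23.8% after cisplatin and 48.1% against 1.99% after Pt-ttpy. No share was above 22.2% at 2 units. Their best shifts from 2.5 to 4.5 kb were 4005, 3300 and 3325 bp, and the untreated one gave 67.3%. In 1 Mb windows with many regions elsewhere the cisplatin shares were 61.7% against 58.3% on chromosome 21, 68.0% against 65.2% on chromosome 1 and 44.9% against 39.9% on chromosome 16.

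Across the genome, runs of matching windows were common, but few stood out against other shifts. Of the tested windows, 15.9% of cisplatin windows on 4q and 28.3% on 10q matched the next unit, against 15% of the whole list. In untreated cells 7.24% and 5.71% matched, against 13.9%, and after Pt-ttpy 9.64% and 30.2%, against 18.9%. Runs of at least 5 such windows were then compared with other shifts. In each list 2 runs had a share at 1 unit that was 25 or more points above the median shift, which is 3.85% of untreated, 1.49% of cisplatin and 1.61% of Pt-ttpy runs. These were both on 4q in untreated cells, and 1 on 4q and 1 on 10q after either drug. The untreated list had no run of any excess on 10q. The highest excess was 60.0, 42.8 and 46.2 points on 4q, and 33.5 and 42.2 points on 10q after cisplatin and Pt-ttpy. Elsewhere in the genome it was 21.9, 15.9 and 16.6 points. Since the 3.3 kb length and the threshold were chosen with these ends in view, this ranks the stretches and tests nothing.

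Summit distances gave a less clear picture. Of all summit pairs up to 20 kb apart, 11.3%, 10.3% and 10.5% on the 4q end and 11.1%, 10.7% and 11.1% on the 10q end were within 150 bp of a multiple of 3.3 kb. Positions within 150 bp of a multiple make up 9.09% of a unit. Pairs 1650 bp or less apart were left out, so evenly spread distances would give slightly more than that. In the dense 1 Mb windows elsewhere the shares ranged from 9.29% (chromosome 1, untreated) to 10.1% (chromosome 16, cisplatin). In the 4q stretch the shares were 28.4% (62 of 218 pairs), 23.0% (79 of 344) and 19.9% (70 of 351). In the 10q stretch they were 12.5% (33 of 263), 10.7% (43 of 401) and 14.3% (51 of 356). For Pt-ttpy the 95% Wilson interval (11.1 to 18.3) lay above 9.09% and above the shares of the dense windows. For the other lists it held them. Pairs share summits and are not independent. Neighbouring summits were closer on 10q, with median gaps of 715, 697 and 672 bp against 1056, 906 and 895 bp on 4q. Periods were also scanned for the one at which region positions lined up best. In the 4q stretch it was 3320, 1640 and 3340 bp, and in the 10q stretch 3270, 1680 and 3210 bp. Over the whole 4q end it was 5100, 4560 and 1980 bp, and over the whole 10q end 3190, 2060 and 3150 bp.

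Units were alike in region number, and on 10q strong regions stood apart in fold. On 4q a unit held a median of 3 untreated, 4 cisplatin and 4 Pt-ttpy regions, and on 10q likewise 3, 4 and 4. The median share of a unit covered was 15.3%, 27.2% and 29.8% on 4q and 17.8%, 44.8% and 39.4% on 10q. The highest fold of a unit ranged over 4.51 to 8.72, 6.06 to 7.96 and 5.20 to 7.14 on 4q. On 10q the fifth unit, 135490000 to 135493299, reached 31.6, 23.4 and 19.5. The other 10q units, with each region given to the unit of its midpoint, ranged over 5.11 to 7.52, 5.89 to 7.79 and 4.81 to 5.85, which overlaps the range of 4q. The strongest region of the 10q end, with folds of 53.8, 34.1 and 25.6, begins in the seventh unit and fills most of the sequence left after it, so it is in none of these ranges. The fifth unit holds the second strongest region of that end. No unit of the 4q stretch reached these folds.

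The units of the ends could be laid over each other. The share of units covered at each position of the unit was computed for 4q and 10q, and the 10q profile was shifted to the best match in the cisplatin list, at 170 bp. The correlation of the profiles over the 3300 positions of the unit at that shift was 0.703 in untreated cells, 0.629 after cisplatin and 0.576 after Pt-ttpy, against medians over all shifts of -0.03, -0.03 and 0.00. The best shift of the list itself was 160 bp in the untreated list (0.707) and 150 bp in the Pt-ttpy list (0.591). Neighbouring positions share regions, so these values are a description. The best shifts of the other lists lay within 20 bp of the one chosen in the cisplatin list, and the lists share most of their places.

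**Figure D4:**
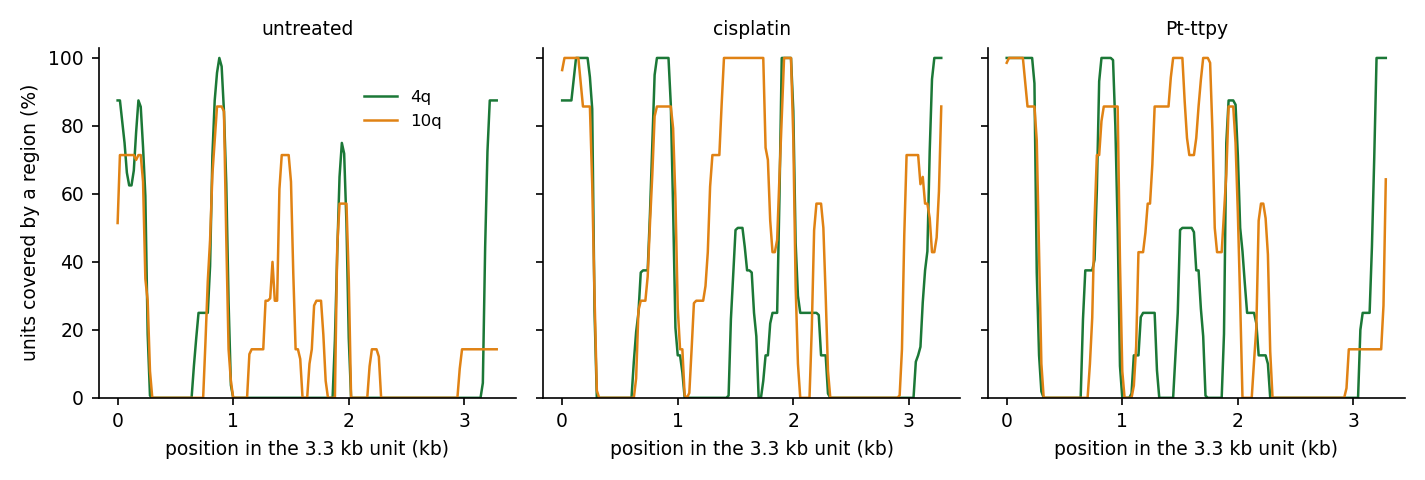
Share of units covered by a region (vertical axis, percent) against position in the 3.3 kb unit (horizontal axis, kb), with the 4q and 10q stretches overlaid for each list after 1 shift chosen in the cisplatin list. After cisplatin the 4q units rise around the unit border to 279 bp, at 761 to 976 bp and at 1887 to 2027 bp, 10q rises at nearly the same positions, and 10q is also high from 1285 to 1812 bp, where 4q is lower.

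3 positions in the unit were covered in at least 50% of units at both ends and in all lists. The numbers of units given are the highest reached within a span. In the cisplatin list the positions were 761 to 976, 1887 to 2027 and 3173 across the unit border to 279 bp on 4q, each reaching 8 of 8 units. On 10q they were 768 to 995 (6 of 7 units), 1875 to 2021 (7 of 7) and 3254 to 284 bp (7 of 7). In untreated cells the 4q positions were 813 to 963, 1912 to 1996 and 3186 to 258 bp, and the 10q ones 815 to 949, 1908 to 2005 and 8 to 240 bp. In the Pt-ttpy list they were 775 to 980, 1900 to 2048 and 3165 to 268 bp on 4q, and 767 to 984, 1884 to 2012 and 3284 to 282 bp on 10q. The pattern within the unit was thus present without drug, and the treated lists held wider versions of it.

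The ends differed in the stretch between the shared positions. On 10q a span from 1285 to 1812 bp after cisplatin and from 1212 to 1809 bp after Pt-ttpy was covered in at least 50% of units. Only parts of this span were covered in 7 of 7 units. On 4q the matching position, 1501 to 1590 and 1501 to 1637 bp, was covered in 4 of 8 units. In untreated cells it was 1403 to 1514 bp in up to 5 of 7 units on 10q, and no position there reached 50% of units on 4q. Cisplatin also had 2188 to 2269 bp in 4 of 7 and 2970 to 3193 bp in up to 5 of 7 units on 10q, and Pt-ttpy the former at 2187 to 2253 bp. The first 10q unit lies in part before the pattern begins, and counts of 6 of 7 come from a few units only.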

How the data were processed

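γH2AX ChIP-seq of A2780 cells gave 1 deposited peak list for each of the untreated, cisplatin and Pt-ttpy groups, with 2 samples a group per the labels. Reads of 50 bases were aligned to hg19, and BWA 0.7.5 and MACS2 2.1.0 are named, per the submitters' processing notes. Which control and thresholds were used, and whether replicates were pooled, is not stated there. The names of the treated lists also carry a tag for untreated cells, so these lists may have been called against the untreated samples, and treated counts, folds and overlaps may then be relative to them. For each region the authors deposited a fold enrichment ratio, a -log10 q-value, and a score made from it. Those values were used only within a list.

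The ends, the unit length and the comparisons were chosen with earlier results of these data known. Each region counted once, overlap was at least 1 bp, blocks joined regions within 25 kb, and densities used 10 kb windows. Repeating stretches needed at least 5 windows of 1 unit in steps of 1650 bp, each with at least 200 covered bp and an overlap with the next unit of at least 0.45 of their joint covered bases. Shares carry Wilson and counts Poisson intervals at 95%. Regions were named by rule: the 5 highest by q, the widest, the nearest to the chromosome end, the 3 densest 10 kb windows, and up to 5 regions of a single list with a -log10 q of at least 5. Examples from these are printed. The places by unit position were chosen after the data were seen. Chromosome lengths came from general knowledge of hg19, and 0 regions lay beyond them. The depth is unknown. The code was tested on simulated regions with a planted 3.3 kb repeat. The tools were scipy 1.17.1, pandas 2.3.3 and numpy 2.4.6 under Python 3.11.15, with figures by matplotlib 3.10.9. Alternatives were a q limit, merging, equal list lengths, other overlap rules and other spacing settings.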

Additional observations from a re-analysis of the deposited data

How the results depend on the processing

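Counts moved most when regions were merged. Merging within 1 kb left 100 untreated, 81 cisplatin and 94 Pt-ttpy regions on 4q and 19, 20 and 21 on 10q, so the order of the lists on 4q turned. A -log10 q of at least 5 left 174 untreated and 303 Pt-ttpy regions on 4q. With the 10090 strongest regions of each list, 4q held 290 cisplatin and 288 Pt-ttpy regions, close to the 268 untreated ones. The share of treated regions on an untreated one rested on the overlap rule. On 4q it was 27.1% (cisplatin) and 31.2% (Pt-ttpy) when at least 50% of the region had to be covered, 69.0% and 74.7% within 1 kb, and 64.8% and 65.3% with lists of equal length. On 10q it was 32.6% and 45.5%, then 85.9% and 94.8%, and 72.3% for cisplatin with lists of equal length.

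The summit share on 4q was 12.7%, 11.5% and 11.4% (untreated, cisplatin, Pt-ttpy) for distances up to 10 kb, and 10.1%, 9.57% and 9.78% up to 40 kb. Within 50 bp it was 4.96%, 3.77% and 3.90% on 4q and 5.38% (cisplatin) and 5.74% (Pt-ttpy) on 10q. Within 300 bp it was 20.02% (untreated) and 19.4% (Pt-ttpy) on 4q. These tolerances cover a smaller and a larger part of a unit than 150 bp, so the shares cannot be compared directly. Scaled by that part, the shares given within 50 bp lay above the interval of the main share. Those given within 300 bp lay below it. With the q limit the summit share was 11.1% and 11.5% for the treated lists on 4q. Without the widest region the 10q share at 1 unit was 40.5%, 69.3% and 71.6%; this alternative was added after seeing the data. Of the other alternative values for the main results, 63 were classed as not moved. For shares this meant within the interval of the main value. Summit shares at other tolerances were first scaled to the part of a unit that 150 bp covers. For the share covered again at 1 unit, the interval came from short pieces of covered sequence. It was wide, so 56.6% in the untreated 4q stretch with the q limit, against 69.2%, was classed as not moved. Counts were instead held to a set ratio, so some lay outside their interval. An example is 332 cisplatin regions on 4q with the q limit, against 491 (449 to 536). The causes of these moves were not tested, beyond the smaller number of regions that merging and the q limit leave.

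No paired analysis was possible because each group has 1 list, and leaving out a replicate was not possible for the same reason. The lists differ in background level and the untreated one lacks numbers, so differences between conditions cannot be told apart from differences in calling.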
